A study of Mus musculus with 6 samples.

Results

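Transcripts of 10 AP-1 and immediate early genes were followed in 6 single-cell RNA-seq (scRNA-seq) libraries of mouse small intestinal organoids, in a study of intracellular pH (pHi), without and with a drug that blocks Na+/H+ exchange or an inducible gene edit. The genes were the Fos family (Fos, Fosb, Fosl1 and Fosl2), the Jun family (Jun, Junb and Jund), and Egr1, Atf3 and Ier2, which are 10 of the 32285 features counted in each library. They were chosen by name, as the AP-1 family with 3 further early genes, after an earlier analysis of these data had called Fosb lower with EIPA in cells with stem cell markers. The measured values behind the choice were therefore those of the contrast of +EIPA with -EIPA, and the values of the 10 genes in that contrast are given as a description. Calls of them are only counted beside the share of all genes called, and no p is given for them.

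The organoid stocks were derived from adult mice that were 10 weeks old and were sequenced at day 3 of growth. The -EIPA group (n = 2 libraries) was WT organoids given the vehicle DMSO, and the +EIPA group (n = 2) was WT organoids given 5 µM EIPA (5-(N-ethyl-N-isopropyl)amiloride), a pharmacological inhibitor of Na+/H+ exchange, the process by which cells expel acid and raise pHi. The -Dox and +Dox groups (n = 1 library each) were organoids with inducible-CRISPR-Cas9 and a guide, without Dox or with 2 µg/mL doxycycline (Dox), which turns on the nuclease. These organoids were raised as single clones after lentiviral infection and puromycin selection, both groups carry the construct, and the number of clones behind each library is not given in the sources used here. Live cells were sorted for the ±EIPA and -Dox libraries and live GFP+ cells for the +Dox library, so the gate, Dox itself, expression of Cas9 and editing cannot be told apart in the Dox comparison.

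AP-1 is a family of dimeric transcription factors in which a Fos protein pairs with a Jun protein, or a Jun protein with another Jun or with an ATF protein, through leucine zippers of the basic leucine zipper (bZIP) class. Many of these genes are immediate early genes: growth factors, calcium signals, stress kinases and the handling of tissue switch them on within minutes through factors that are already present, and their transcripts are short lived. In the intestinal epithelium, signalling through the EGF receptor, ERK and JNK feeds into AP-1, and enzymatic dissociation of tissue is known to raise the transcripts of Fos, Jun, Egr1 and Atf3. Here organoids were released in cold recovery solution and then dissociated with TrypLE at room temperature in every group.

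The 250 bases upstream of the start site are shown for Fos, Fosb, Jun and Atf3, the 4 genes at the lowest share of their -EIPA level over all cells. RefSeq promoters (build GRCm38.p6) of 7 of the 10 genes were used here, those of Fos, Fosb, Fosl2, Jun, Junb, Jund and Atf3. The windows lie at chr12:85473640-85473889 on the plus strand for Fos, and on the minus strand at chr7:19310046-19310295 for Fosb, chr4:95052223-95052472 for Jun and chr1:191183334-191183583 for Atf3. The Fos and Jun windows end next to the first base of the GENCODE gene (Fos chr12:85473890-85477273 and Jun chr4:95049034-95052222), while the Atf3 window lies inside the longer GENCODE gene model of Atf3 (chr1:191170296-191218039). The Fosb window overlaps the start of its GENCODE gene (chr7:19302696-19310051) by a few bases. Of the windows not printed, that of Fosl2 (chr5:32136222-32136471) also lies inside its GENCODE gene (chr5:32135801-32157842), and that of Jund (chr8:70697489-70697738) ends well before its GENCODE gene (chr8:70698949-70700616), so both are set by another start than the gene model's. The Junb window (chr8:84978749-84978998, minus strand) ends shortly before its GENCODE gene (chr8:84974484-84978718). Sequences run 5′ to 3′ along the gene, and capitals mark TGACG, the core of the cyclic AMP response element (CRE) bound by CREB and ATF proteins, or TGACATCA, a variant of that element known in the Jun promoter as a site for Jun and ATF2.
Fos: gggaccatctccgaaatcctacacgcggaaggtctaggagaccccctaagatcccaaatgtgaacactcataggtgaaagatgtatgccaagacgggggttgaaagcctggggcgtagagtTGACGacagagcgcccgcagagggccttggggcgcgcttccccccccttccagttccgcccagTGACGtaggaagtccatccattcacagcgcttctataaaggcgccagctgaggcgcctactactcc
Fosb: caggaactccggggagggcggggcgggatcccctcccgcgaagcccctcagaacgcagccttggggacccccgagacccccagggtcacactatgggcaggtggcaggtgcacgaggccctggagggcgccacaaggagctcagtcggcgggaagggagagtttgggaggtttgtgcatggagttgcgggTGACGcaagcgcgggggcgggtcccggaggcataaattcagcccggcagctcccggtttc
Jun: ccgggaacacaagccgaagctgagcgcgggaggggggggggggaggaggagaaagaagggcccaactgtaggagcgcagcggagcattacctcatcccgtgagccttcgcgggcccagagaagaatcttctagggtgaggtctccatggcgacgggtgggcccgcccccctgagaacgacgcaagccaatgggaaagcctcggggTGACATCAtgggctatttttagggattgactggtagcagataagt
Atf3: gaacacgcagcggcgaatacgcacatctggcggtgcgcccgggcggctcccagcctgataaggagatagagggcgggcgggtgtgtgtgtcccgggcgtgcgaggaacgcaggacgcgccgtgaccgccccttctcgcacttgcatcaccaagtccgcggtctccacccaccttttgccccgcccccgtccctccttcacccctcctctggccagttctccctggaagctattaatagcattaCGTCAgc

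TGACG was found on either strand in 4 of the 7 windows, those of Fos, Fosb, Junb and Atf3, and in 17.8% of 32851 RefSeq promoters of the same length. In Fos it began 129 and 66 bases before the start, in Fosb 60 and in Junb 106, and in Atf3 it lay on the opposite strand, 7 to 3 bases before the start. TGACATCA lay 45 to 38 bases before the start of Jun and was found in 2.93% of all promoters. TGACG is contained in the full element TGACGTCA, which was found in 0 of the 7 windows and in 1.55% of all promoters. The AP-1 element TGANTCA was found in 0 of the 7 against 6.75%, and the CArG box, the element of serum response factor, in 0 of the 7 against 1.47%. A missing match says only that these letters are not in the 250 bases.

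The 6 libraries held 12083 to 18211 cells past the limits of 1000 genes and 20% mitochondrial UMIs, which were 57.0 to 84.4% of the deposited barcodes, at median depths of 11477.5 to 17020 UMIs per cell. Any pair of libraries shared 33 to 78 cell barcodes. Levels are UMIs of a gene summed over the cells of a library or class, per 1000000 UMIs of those cells (CPM), and carry a 95% exact Poisson interval for counting error only. Cells fell into 6 marker-named classes: intestinal stem cell-like (ISC-like), proliferating, enterocyte-like, Goblet/Paneth-like, enteroendocrine cell-like (EEC-like) and tuft-like, and 9.41 to 28.7% of the cells of a library stayed unnamed. The 10 genes were kept out of the genes used to cluster. The clusters that make up the ISC-like class differed between libraries: 94.3% of cluster 8 came from -Dox and 98.1% of cluster 11 from +Dox, cluster 6 was 58.9% -EIPA replicate 2, and cluster 3 held 1396 and 508 cells of -EIPA against 2480 and 2872 of +EIPA. Among proliferating cells, 98.7% of cluster 17 came from +Dox.

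With EIPA, Fos, Fosb, Fosl2, Jun, Egr1, Atf3 and Ier2 were at lower levels in both +EIPA libraries than in both -EIPA libraries when all kept cells were summed. Fosb stood at 20.7% of its -EIPA mean, Atf3 at 32.3%, Fos at 37.1% and Jun at 47.8%. Junb, Jund and Fosl1 overlapped between the groups. A sum over all cells moves with the mix of cell types as well as with RNA per cell, and fewer cells of a type and less RNA per cell cannot be told apart in it, so each gene is also given within the classes. The values of the 10 genes in each library are plotted, with the mean of each group.

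**Figure D1:**
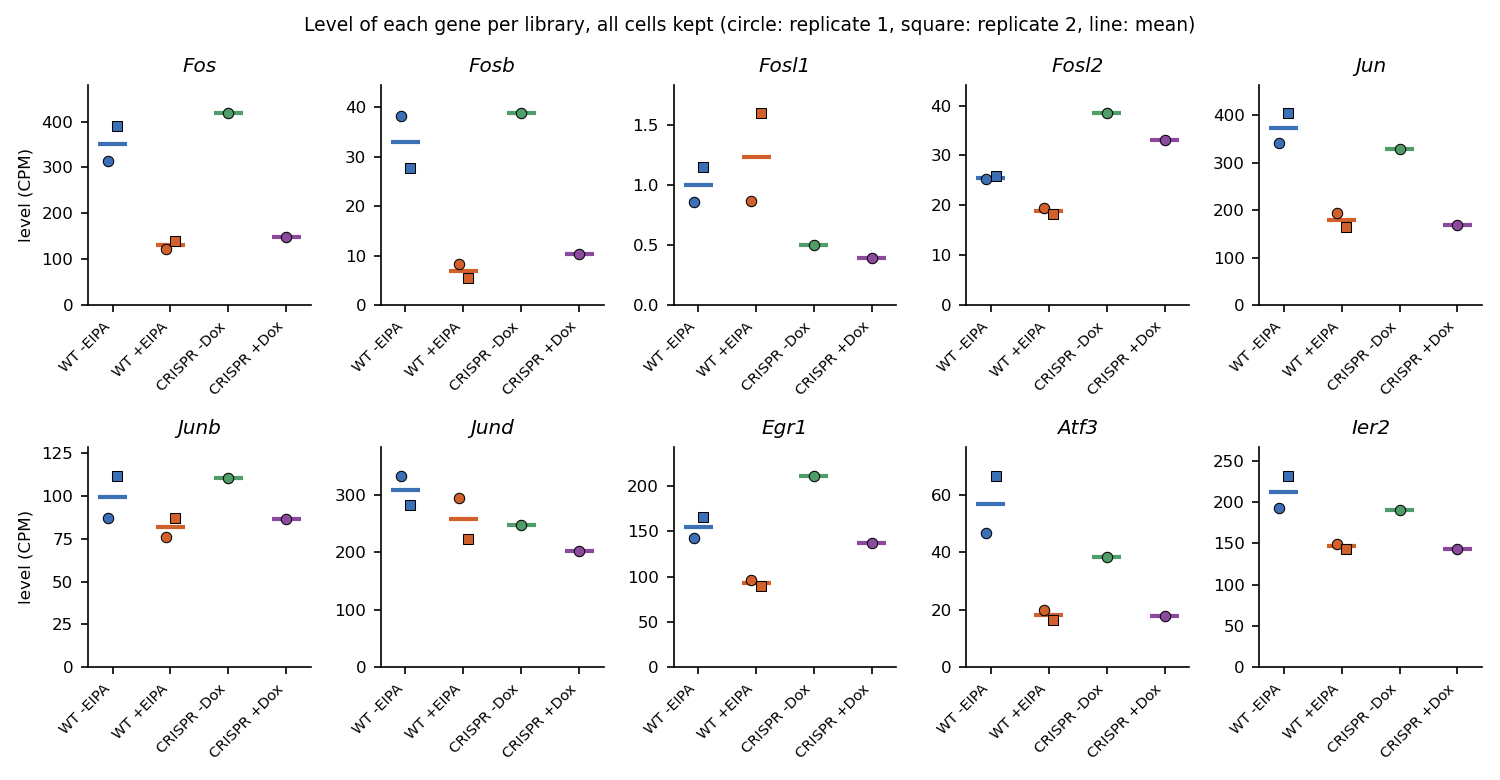
Level (CPM, linear axis from 0) of each of the 10 genes in each library, all cells kept. Circles are replicate 1, squares replicate 2 and lines the group mean of 2 libraries or the value of 1 library. Without EIPA Fos lies at 313 and 391 CPM, and under EIPA at 122 and 139 CPM, and the same order is seen for Fosb, Fosl2, Jun, Egr1, Atf3 and Ier2.

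Fos encodes the Fos protein that forms the inducible AP-1 dimer with Jun. Its level was 313 and 391 CPM without EIPA and 122 and 139 CPM under EIPA, a fitted log2 fold change (+EIPA over -EIPA) of -1.35 ± 0.16 (SE, n = 2 libraries a group). For each of the 10 genes, fold changes given with an SE come from the fit that does not pair the libraries. The +EIPA library was at 38.9% of its -EIPA partner in experiment 1 and at 35.7% in experiment 2, so the pairs gave a near equal share. Among classes, Fos was at 271 and 387 against 89.4 and 139.7 CPM in ISC-like cells, 299 and 368 against 83.7 and 113 CPM in proliferating cells and 293 and 385 against 107 and 122 CPM in enterocyte-like cells. In secretory classes it was at 472 and 469.9 against 269.7 and 198 CPM in Goblet/Paneth-like cells and 374 and 408 against 212 and 214 CPM in EEC-like cells, and in tuft-like cells at 168 and 269.8 against 68.2 and 86.1 CPM. The groups overlapped in none of the 6 classes, and the +EIPA mean ranged from 29.4% of the -EIPA mean in proliferating cells to 54.5% in EEC-like cells.

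Fosb encodes a Fos protein that is induced together with Fos and also pairs with Jun proteins. Its level was 38.3 and 27.8 CPM without and 8.20 and 5.44 CPM with EIPA over all cells, a log2 fold change of -2.20 ± 0.24 (SE). ISC-like cells held 27.9 and 22.8 CPM without and 4.15 and 3.49 CPM with EIPA, or 14.8% and 15.3% of the partner library in experiments 1 and 2. The share of the -EIPA mean was 15.0%, next to 15.1% in proliferating cells, and the earlier analysis had picked out Fosb in the ISC-like class. Proliferating cells held 31.7 and 21.0 against 5.36 and 2.60 CPM, enterocyte-like cells 30.01 and 24.3 against 6.06 and 4.80 CPM and tuft-like cells 22.8 and 19.3 against 5.63 and 3.29 CPM. Goblet/Paneth-like cells held 86.9 and 52.2 against 24.4 and 13.1 CPM and EEC-like cells 77.0 and 33.7 against 22.6 and 10.9 CPM. No class overlapped between the groups, and EEC-like cells gave the highest share, 30.3% of the -EIPA mean, with the widest spread between the -EIPA libraries.

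The remaining Fos family genes differed less. Fosl2, which encodes Fra-2, was at 25.3 and 25.8 CPM without and 19.5 and 18.2 CPM with EIPA (log2 fold change -0.35 ± 0.06, SE), and at 63.2% (ISC-like) to 80.0% (EEC-like) of the -EIPA mean over the classes, with no overlap in any of the 6. In ISC-like cells the libraries of 1 group lay closer together for Fosl2 than for Fos, with Fosl2 at 23.1 and 26.1 CPM without and 15.6 and 15.5 CPM with EIPA. This did not hold in every class. In Goblet/Paneth-like cells without EIPA, Fosl2 was at 32.9 and 29.0 CPM and Fos at 471.5 and 469.9 CPM. Fosl1, which encodes Fra-1, was counted at 0.860 and 1.14 CPM without and 0.865 and 1.60 CPM with EIPA, and its groups overlapped. In the unnamed cells it was at 1.12 and 1.61 against 2.17 and 5.51 CPM, higher with EIPA without overlap. Its highest level lay in the unnamed cluster 15, led by Tm4sf4, Sprr1a, Lgals3 and Clu, where Fosl1 was at 4.85 and 8.05 CPM without EIPA, 7.47 and 11.5 CPM with EIPA, 4.44 CPM with -Dox and 2.83 CPM with +Dox. The cells of cluster 15 numbered 105 and 180 without EIPA, 400 and 681 under EIPA, 88 with -Dox and 358 with +Dox. A sum of Fosl1 over all cells includes these cells. With Dox they were more, while that sum was 0.499 CPM with -Dox and 0.393 CPM with +Dox. The part of their number in the sum was not tested.

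In the Jun family, Jun differed most. Jun, the main partner of Fos and the target of JNK, was at 342 and 404 CPM without and 193 and 163 CPM with EIPA (log2 fold change -0.99 ± 0.13, SE). The share was 56.4% in experiment 1 and 40.4% in experiment 2. ISC-like cells held 355 and 475 against 188 and 210.2 CPM, proliferating cells 296 and 337 against 152 and 143 CPM, and enterocyte-like cells 349 and 407 against 187 and 128 CPM. EEC-like cells held 655 and 648 against 400.4 and 327 CPM, Goblet/Paneth-like cells 376 and 405 against 261 and 188 CPM and tuft-like cells 379 and 513 against 265 and 223 CPM. Jun did not overlap between the groups in any class, and its share ran from 41.7% in enterocyte-like to 57.5% in Goblet/Paneth-like cells, a narrower range than that of Fos.

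Junb, which can hold back the activity of Jun at some promoters, was at 87.0 and 112 CPM without and 76.2 and 87.0 CPM with EIPA, with overlapping groups over all cells (log2 fold change -0.20 ± 0.17, SE). Within proliferating cells it was at 65.6 and 79.0 against 48.1 and 50.4 CPM without overlap, as it was in enterocyte-like and Goblet/Paneth-like cells, while the groups overlapped in the other 3 classes. Jund, the Jun gene with the steadiest expression in resting cells, was at 334 and 282 CPM without and 294 and 224 CPM with EIPA (log2 fold change -0.17 ± 0.15, SE). Replicate 1 was above replicate 2 in both groups, and within experiments the share was 88.0% and 79.3%. The mean share was 68.2 to 81.8% over the classes for Junb and 73.0 to 84.0% for Jund. In both experiments the +EIPA library was below its partner in all 6 classes for both genes. In the unnamed cells Junb was at 98.9% and 115% of its partner in experiments 1 and 2, and Jund at 97.9% and 102%. The share of all genes below their partner in both experiments was not counted. Scaled by library size, as CPM are, all genes had a median log2 fold change of -0.0858 in all cells.

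Atf3, a stress-induced bZIP factor that pairs with Jun proteins, was at widely different shares over the classes. Over all cells it was at 46.8 and 66.8 CPM without and 20.1 and 16.6 CPM with EIPA (log2 fold change -1.55 ± 0.20, SE). ISC-like cells held 39.9 and 81.5 CPM without and 6.24 and 5.36 CPM with EIPA, a log2 fold change of -3.32 ± 0.38. Proliferating cells held 31.5 and 39.9 against 5.75 and 3.54 CPM, a log2 fold change of -2.90 ± 0.25. In enterocyte-like cells the values were 55.4 and 66.4 against 27.8 and 34.9 CPM, a log2 fold change of -0.84 ± 0.17. Thus Atf3 was at 9.55% of its -EIPA mean in ISC-like cells and at 51.5% in enterocyte-like cells. Within experiments 1 and 2 the share was 15.6% and 6.58% in ISC-like cells, and 50.2% and 52.6% in enterocyte-like cells. Goblet/Paneth-like cells held 97.5 and 103 against 43.6 and 14.6 CPM, EEC-like cells 118 and 181 against 72.8 and 43.2 CPM and tuft-like cells 24.9 and 41.8 against 9.39 and 4.94 CPM. In the secretory and tuft-like classes the +EIPA replicates lay far apart, with replicate 2 the lower, but stayed below both -EIPA libraries.

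Egr1, a zinc finger factor induced by ERK signalling, was at 143 and 166 CPM without and 96.7 and 89.5 CPM with EIPA (log2 fold change -0.65 ± 0.11, SE). Its share was lowest in enterocyte-like cells, where it was at 137 and 165 against 62.4 and 70.8 CPM, or 44.1% of the -EIPA mean. ISC-like cells held 110.0 and 142 against 66.9 and 73.8 CPM and proliferating cells 122 and 137 against 60.4 and 65.7 CPM. In Goblet/Paneth-like cells the groups overlapped, at 241 and 219 CPM without and 244 and 152 CPM with EIPA, with 101% of the partner in experiment 1 and 69.3% in experiment 2. The groups also overlapped in tuft-like cells, at 81.1 and 147 against 86.4 and 56.0 CPM, and did not in EEC-like cells, at 410.1 and 378 against 328 and 257 CPM. Egr1 was the only one of the 9 well-detected genes that was not below its partner in both experiments in every named class.

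Ier2, an early gene that encodes a nuclear protein, was at 193 and 232 CPM without and 149 and 143 CPM with EIPA (log2 fold change -0.46 ± 0.12, SE). It was at 55.4% of the -EIPA mean in enterocyte-like cells (151 and 205 against 100.3 and 97.2 CPM) and at 79.9% in Goblet/Paneth-like cells (207 and 228 against 193 and 155 CPM). In ISC-like cells it was at 194 and 240.4 against 165 and 166 CPM and in proliferating cells at 206 and 227 against 158 and 152 CPM. The groups overlapped in none of the 6 classes.

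**Figure D2:**
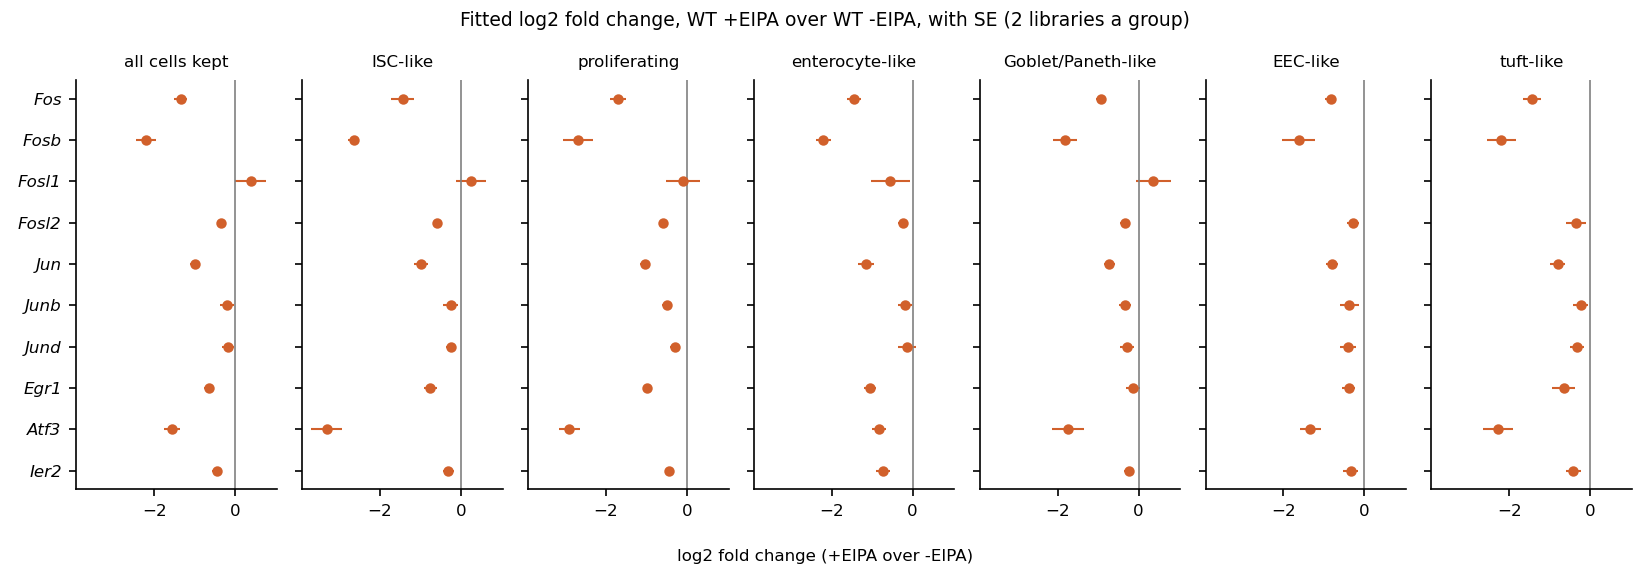
Fitted log2 fold change (x axis, +EIPA over -EIPA, 2 libraries a group) of the 10 genes in all cells kept and in each class. Points are edgeR estimates from the fit that does not pair the libraries and bars ± 1 SE, and Fosl1 was not fitted in EEC-like and tuft-like cells. Fosb and Atf3 lie farthest to the left in ISC-like cells, at -2.65 and -3.32, and in proliferating cells, at -2.69 and -2.90, and in each panel Junb and Jund lie closer to 0 than Fosb, Fos and Jun.

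Counts of calls are set beside the share of all genes called by the same rule, since the contrast also served the choice of the genes and nothing is read from them. Over all cells kept, the quasi-likelihood test of edgeR called 0 of 10 genes at an adjusted p under 0.05, where it called 0.0% of 15890 genes, with 1601 genes at an unadjusted p under 0.05. By DESeq2, 7 of 10 were called, and 3.94% of all genes. The -EIPA and +EIPA libraries of the same replicate number belong to 1 experiment, and with that number as a block edgeR called 6 of 10, all lower with EIPA, and 5.28% of all genes, 129 of them lower. Levels were without overlap and lower with EIPA for 7 of 10, against 33.6% of all genes. The median log2 fold change was -0.55 over the 10 genes and -0.003 over all genes tested.

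Within classes edgeR without the block called 0 of the 10 genes, except for Fos in Goblet/Paneth-like cells. In ISC-like cells edgeR called 0 of 10 (0.0% of all genes, with 700 at an unadjusted p under 0.05), DESeq2 4 (0.426%) and edgeR with the block 8 (4.44%), and 8 were lower without overlap (32.0%). In proliferating cells the counts were 0 of 10 (0.0%, with 634 genes unadjusted), 7 by DESeq2 (0.668%), 9 with the block (9.02%) and 9 without overlap (26.3%). In enterocyte-like cells they were 0 of 10 (0.0%, with 1697 genes unadjusted), 6 by DESeq2 (3.23%), 6 with the block (5.82%) and 8 without overlap (39.1%).

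In Goblet/Paneth-like cells edgeR called Fos alone (0.38% of 12627 genes), DESeq2 3 of 10 (0.83%) and edgeR with the block 7 (5.96%), and 7 were lower without overlap (29.9%). The call of Fos was lost when either -EIPA library was left out, when called doublets were removed, and with clusters formed within each library. Fosl1 was too low for the edgeR fits in EEC-like and tuft-like cells, which therefore held 9 of the genes, while DESeq2 tested 10. In EEC-like cells edgeR called 0 of 9 (0.138%, with 347 genes unadjusted), DESeq2 2 of 10 (0.296%) and edgeR with the block 6 (1.8%), and 8 were without overlap (19.4%). In tuft-like cells edgeR called 0 of 9 (0.0204%, with 332 genes unadjusted), DESeq2 1 of 10 (0.0255%) and edgeR with the block 4 (0.468%), and 7 were without overlap (22.0%).

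Because the clusters of the ISC-like class were filled unequally, levels were also taken within cluster 3, the ISC-like cluster with the most WT cells. Its 10 leading genes included Mcm3, Mcm4, Mcm6, Dtl, Hells and Ung, which act in DNA replication or repair, beside the stem cell genes Gkn3 and Olfm4. In it Fos was at 262 and 347 CPM without and 88.5 and 139 CPM with EIPA. Fosb was at 29.2 and 23.6 against 4.27 and 3.53 CPM, and Atf3 at 35.3 and 57.9 against 5.95 and 5.18 CPM. Within this 1 cluster the order of the groups was that of the whole class for the 3 genes. Cluster 6, with Olfm4, Gkn3 and Lgr5 among its 10 leading genes, held 748 and 2711 cells without and 144 and 108 with EIPA. Levels within cluster 6 are not given here. The ISC-like values with EIPA therefore compare different mixes of clusters as well as different groups.

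The Dox comparison had 1 library per group, so it has no test and its intervals cover counting error only. Fos was at 418 CPM with -Dox and 148 CPM with +Dox, or 35.3% (34.9 to 35.8%) of the -Dox level. Fosb was at 38.8 against 10.4 CPM, or 26.8% (25.7 to 28.1%), and Fosl2 at 38.5 against 33.2 CPM, or 86.2% (83.7 to 88.9%). Fosl1 was at 0.499 against 0.393 CPM, and its interval included no difference. In the Jun family, Jun was at 328 against 169 CPM, or 51.4%, Junb at 110.2 against 86.7 CPM, or 78.7%, and Jund at 248 against 202 CPM, or 81.7%. Atf3 was at 38.4 against 18.0 CPM, or 46.9%, Egr1 at 212 against 138 CPM, or 65.0%, and Ier2 at 191 against 143 CPM, or 75.1%. Fosb had the lowest share of the 10 and Fosl2 the share nearest to 100 among the 9 genes at 1 CPM or more.

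The 9 genes with a mean of at least 1 CPM were lower with +Dox in all cells and in each class. The share of all genes lower by any amount was not counted. The median log2 ratio of all genes with counts in both libraries was -0.053 in all cells. Over the classes it ran from -0.123 in Goblet/Paneth-like to 0.048 in tuft-like cells. Lower by at least 1.5-fold were 5 of 9 in all cells (Fos, Fosb, Jun, Egr1 and Atf3), against 2.55% of 11413 genes at that level. The counts were 5 of 9 in ISC-like cells (2.83% of all genes), 4 in proliferating cells (2.26%), 7 in enterocyte-like cells (12.2%), 5 in Goblet/Paneth-like cells (3.75%), 4 in EEC-like cells (5.76%) and 5 in tuft-like cells (15.7%). Fos, Jun and Atf3 were among them in every class. Under strict limits on cells, Jun in tuft-like cells was at 74.8% (63.1 to 88.7%), short of that fold. Enterocyte-like cells had the lowest shares of Fos, Fosb and Jun among the classes, with Fos at 324 CPM with -Dox and 66.5 CPM with +Dox (20.5%), Fosb at 30.1 against 3.37 CPM (11.2%) and Jun at 313 against 126 CPM (40.1%). In ISC-like cells Fosb was at 31.2 against 7.02 CPM (22.5%) and Atf3 at 30.7 against 7.27 CPM (23.7%). Fosb in tuft-like cells was at 90.6% (39.7 to 204%), an interval that includes no difference, from 84 and 58 cells with -Dox and +Dox. With called doublets removed, Fosb there was higher with +Dox, at 3.61 CPM from 1 UMI with -Dox and 17.2 CPM from 13 UMIs with +Dox. The interval of Junb in tuft-like cells, 77.6% (56.4 to 106%), also includes no difference. In the unnamed cells Fosl1 was at 0.781 CPM with -Dox and 1.68 CPM with +Dox, or 215% (126 to 367%), from 31 and 30 UMIs, and cluster 15 made up 88 of 3523 and 358 of 1137 of these cells. In the same cells Fosl2 was at 122% and Jund at 105% of the -Dox level, while Fos was at 26.9%.

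In 3 of the classes different clusters held most of the -Dox and of the +Dox cells, so the class values above compare different cells as well as different libraries. Of the ISC-like cells, 2696 of 3702 with -Dox lay in cluster 8 and 2528 of 2710 with +Dox in cluster 11. The 10 leading genes of each held 1 stem cell marker of the list, Olfm4, beside the replication and repair genes Ung, Mcm7 and Rfc3 in cluster 8, and Ung and the Paneth cell marker Nupr1 in cluster 11. The rule that names a class reads more leading genes than these 10, so the name does not rest on Olfm4 alone. Of the proliferating cells, 3341 and 765 of 4108 with -Dox lay in clusters 0 and 10, and 1658 of 1972 with +Dox in cluster 17. Within cluster 0, with 233 cells of +Dox, Fos was at 443 CPM with -Dox and 169 CPM with +Dox and Jun at 303 against 167 CPM. Of the enterocyte-like cells, cluster 2, led by Gstm3, Fabp1 and Arg2, held 2316 of 4046 with -Dox and 1061 of 3447 with +Dox, and cluster 4, led by Reg3a and Apoc3, held 919 and 1867. Within cluster 2 Fos was at 383 CPM with -Dox and 101 CPM with +Dox, Fosb at 32.6 against 4.48 CPM and Jun at 323 against 125 CPM. Within cluster 4 Fos was at 191 against 41.2 CPM, Fosb at 18.5 against 2.27 CPM and Jun at 225 against 113 CPM. The order of the Dox libraries within clusters 2 and 4 was that of the whole class for the 3 genes, and within cluster 0 for the 2 genes given.

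**Figure D3:**
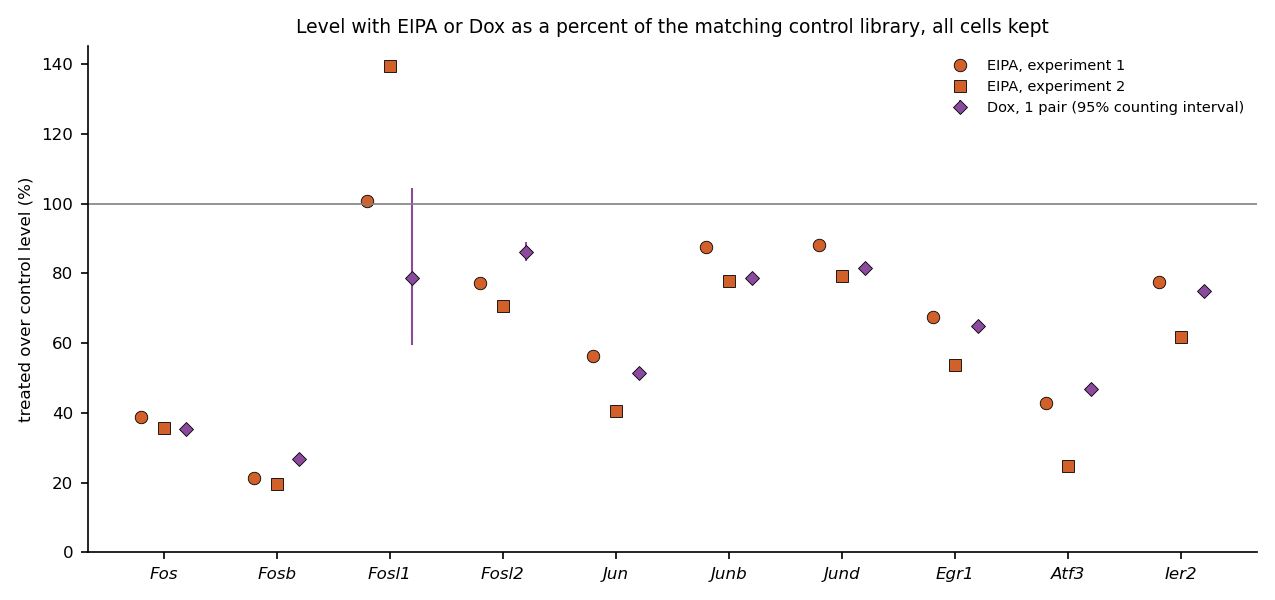
Level with EIPA or Dox as a percent of the matching control library (y axis, linear, 100 marked by a line), all cells kept. Circles and squares are the experiments 1 and 2 with EIPA, diamonds the single Dox pair with its 95% counting interval. Fos lies at 38.9% and 35.7% with EIPA and 35.3% with Dox, Fosb at 21.4%, 19.6% and 26.8%, and Junb and Jund lie between 77.8 and 88.0%.

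Across classes, EEC-like and Goblet/Paneth-like cells held the highest levels of most of the genes. These class levels are a description, since classes are clusters of the same cells. Among the 9 genes without Fosl1, EEC-like cells were highest in 35 of 54 gene and library pairs and Goblet/Paneth-like cells in 13. Jun, Jund, Egr1 and Atf3 were highest in EEC-like cells in 6 of 6 libraries, Fosb in Goblet/Paneth-like cells in 6 of 6, and Fos in Goblet/Paneth-like cells in 5 of 6. The -EIPA libraries of EEC-like cells held Jun at 648 and 655 CPM, above tuft-like cells at 379 and 513 CPM, while tuft-like, ISC-like, Goblet/Paneth-like and enterocyte-like neighbours in that order overlapped. Egr1 was at 378 and 410.1 CPM in EEC-like, 219 and 241 CPM in Goblet/Paneth-like and 137 and 165 CPM in enterocyte-like cells, each of the first 2 apart from the next, and from enterocyte-like cells down each class overlapped the next. Atf3 was at 118 and 181 CPM in EEC-like and 97.5 and 103 CPM in Goblet/Paneth-like cells, and Jund at 431 and 552 CPM in EEC-like cells, which overlapped tuft-like cells.

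The Fos genes had another order. In the -EIPA libraries, Fos was at 469.9 and 472 CPM in Goblet/Paneth-like cells, apart from EEC-like cells at 374 and 408 CPM, and then EEC-like, enterocyte-like, proliferating and ISC-like cells overlapped each with the next, with tuft-like cells lowest at 168 and 269.8 CPM. Fosb was at 52.2 and 86.9 CPM in Goblet/Paneth-like and 33.7 and 77.0 CPM in EEC-like cells, which overlapped, and at 24.3 and 30.01 CPM in enterocyte-like cells. Junb was lowest in proliferating cells in 6 of 6 libraries and Jund likewise, whereas Ier2 was lowest in enterocyte-like cells in 6 of 6. Fosl2 in the -EIPA libraries was at 29.0 and 32.9 CPM in Goblet/Paneth-like and 29.4 and 29.6 CPM in enterocyte-like cells, which overlapped, and at 19.1 and 19.98 CPM in proliferating cells, which overlapped tuft-like cells.

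**Figure D4:**
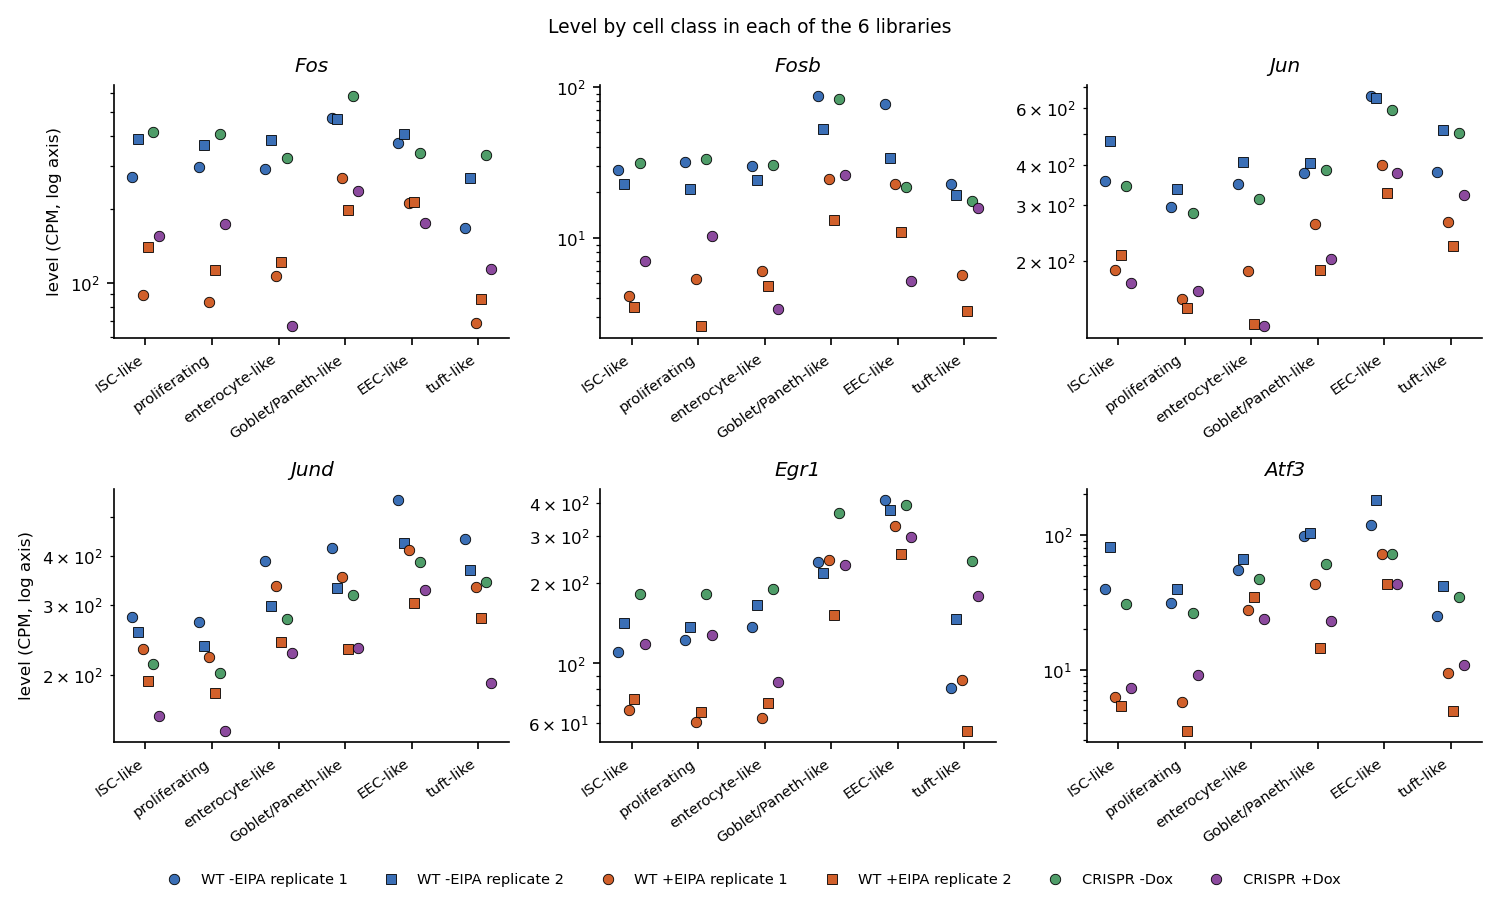
Level (CPM, log axis) of Fos, Fosb, Jun, Jund, Egr1 and Atf3 by cell class in each of the 6 libraries, with 1 point per library. Blue is -EIPA, orange +EIPA, green -Dox and purple +Dox, with circles for replicate 1 and squares for replicate 2. The +EIPA points lie below the -EIPA points in every class for Fos, Fosb, Jun and Atf3, and Jun, Jund, Egr1 and Atf3 peak in EEC-like cells.

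Single cells were compared after thinning each to 5000 UMIs, which left out the shallower cells, from 690 to 2497 a library. The median cell then held 7 and 8 UMIs of the 10 genes together in the -EIPA libraries, 4 and 4 in the +EIPA libraries, 7 with -Dox and 4 with +Dox. The 90th percentile was 14 and 16 UMIs without EIPA and 10 and 9 with it. With -Dox it was 15 and with +Dox 10. Over all cells, both the median and the 90th percentile were therefore lower in the +EIPA and +Dox libraries. In EEC-like cells the median was 10 and 12 UMIs without and 7 and 7 with EIPA, and the 75th percentile 18 and 19 against 13 and 12. Thinning left out 137 of 490 and 351 of 1182 such cells without EIPA, and 244 of 769 and 126 of 715 with it. These values therefore describe the deeper EEC-like cells only. In EEC-like cells the median was 9 and the 90th percentile 18 with -Dox, against 8 and 20 with +Dox, but thinning left out 199 of 406 such cells with -Dox and 134 of 697 with +Dox, so no comparison is made.

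**Figure D5:**
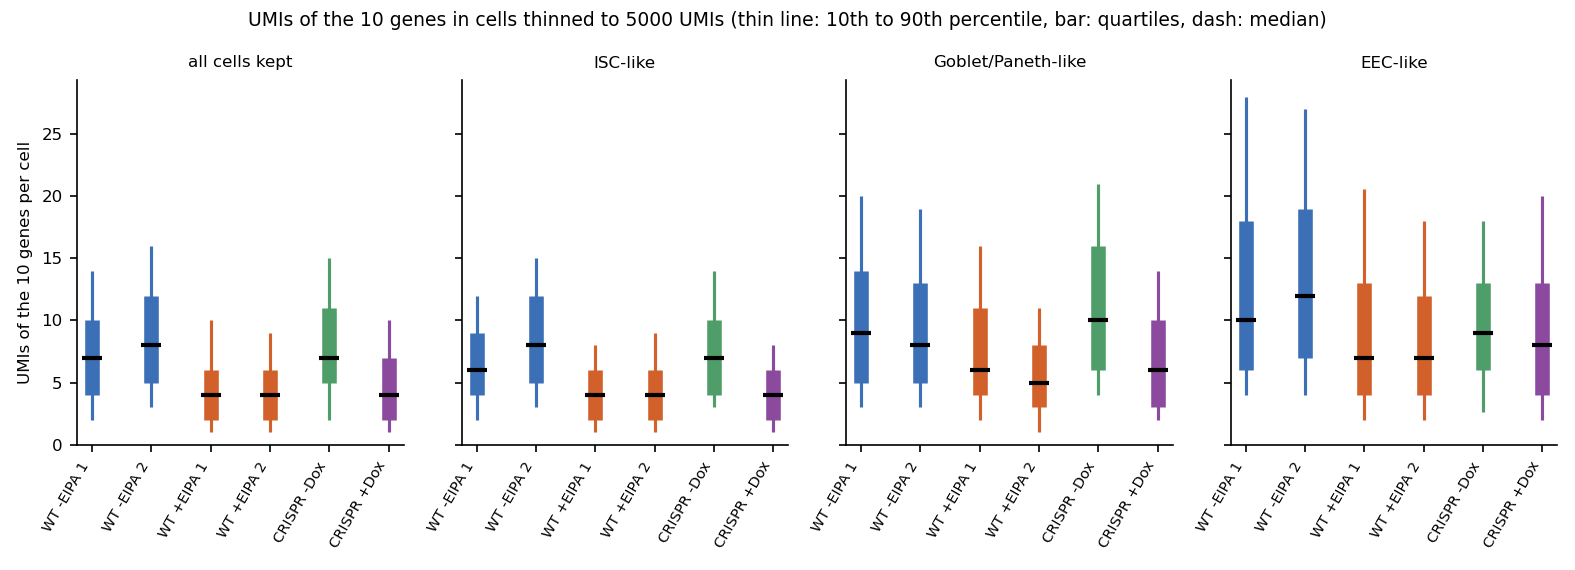
UMIs of the 10 genes together per cell (y axis) after thinning each cell to 5000 UMIs, by library, in all cells kept and in ISC-like, Goblet/Paneth-like and EEC-like cells. Thin lines run from the 10th to the 90th percentile, bars from the 25th to the 75th, and dashes mark medians. The median over all cells is 7 and 8 in the -EIPA libraries and 4 in both +EIPA libraries.

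The other genes of the early response were counted over lists that were also written with earlier results of this contrast known, so no p is given for a gene of them. Of 40 further early genes tested in all cells, edgeR without the block called 0 in either direction, 14 were at an unadjusted p under 0.05, and DESeq2 called 12 lower and 1 higher. Under the block edgeR called 8 lower and 1 higher in all cells (beside 5.28% of all genes, 129 lower and 710 higher). It called 18 lower and 1 higher of 38 in ISC-like cells (4.44%, 235 lower and 331 higher), and 20 lower and 2 higher of 39 in proliferating cells (9.02%, 507 lower and 689 higher). The counts lower were 10 of 37 in enterocyte-like cells (148 of 12516 genes lower) and 16 of 39 in Goblet/Paneth-like cells (195 of 12627). They were 6 of 38 in EEC-like cells (41 of 12310) and 0 of 30 in tuft-like cells (5 of 9821). In enterocyte-like cells 1 was higher, beside 580 genes called higher. The median log2 fold change of the list was -0.10 in all cells and -0.51 in ISC-like cells, beside -0.003 and -0.006 over all genes tested.

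By size, Egr3, Egr2, Dusp1 and Klf2 led the list in ISC-like cells under the block. Egr2 and Egr3 encode relatives of Egr1. Egr3 was at 1.40 and 0.649 CPM without and 0.169 and 0.116 CPM with EIPA, from 5 UMIs in each +EIPA library, and edgeR put it -2.68 ± 0.43 (SE) on the log2 scale. Egr2 was at 1.36 and 2.38 against 0.404 and 0.489 CPM. Dusp1, a phosphatase that switches off MAP kinases, was at 16.2 and 18.6 CPM without and 6.64 and 4.36 CPM with EIPA, or -1.62 ± 0.16 (SE) on the log2 scale. Klf2, a Krüppel-like factor, was at 6.84 and 7.46 against 2.56 and 2.52 CPM. The same 4 genes led in proliferating cells, with log2 fold changes of -2.91 ± 0.47, -2.33 ± 0.25, -1.75 ± 0.10 and -1.73 ± 0.15. Higher with EIPA under the block were Nfkbia, the inhibitor of NF-κB, in ISC-like cells (86.1 and 88.2 against 116 and 92.7 CPM), Nfkbia and Cebpd in proliferating cells, and Sgk1 in all cells and in enterocyte-like cells.

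In the lists around AP-1, the edgeR fits with all 4 libraries and the count filter gave calls with the block and 0 without it. Under the block 5.28% of all genes were called in all cells, 4.44% in ISC-like, 9.02% in proliferating, 5.82% in enterocyte-like, 5.96% in Goblet/Paneth-like and 1.8% in EEC-like cells. Of the 11 genes of ERK feedback, edgeR without the block called 0 in all cells, with 1 at an unadjusted p under 0.05 and 1 called by DESeq2, and under the block Spry1, an inhibitor of receptor tyrosine kinase signalling, was lower in all cells (8.95 and 10.4 against 6.09 and 5.81 CPM), in ISC-like and in Goblet/Paneth-like cells. In proliferating cells, where 507 of 13255 genes were called lower, 4 of 11 were lower under the block, namely Spry1 (-0.55 ± 0.09, SE, on the log2 scale), Spry2 (-0.34 ± 0.09), Dusp5 (-0.55 ± 0.08) and Dusp6 (-0.31 ± 0.08), and 2 were higher, Phlda1 (0.16 ± 0.04) and Etv4 (0.32 ± 0.06). Dusp6, a phosphatase of ERK, was higher in enterocyte-like cells (0.66 ± 0.14), and Spry2 was lower in EEC-like cells (-0.67 ± 0.20). The 17 kinases and factors upstream of AP-1, among them ERK, JNK and their targets in the Elk family, gave 0 calls without the block, 1 gene at an unadjusted p under 0.05 and 0 by DESeq2, and Elk3 was called higher under the block in all cells, at 0.254 and 0.489 against 0.629 and 0.967 CPM. Among 12 other bZIP genes, with 0 calls without the block, 3 at an unadjusted p under 0.05 and 2 by DESeq2, Jdp2 and Maf were among those higher under the block, and Mafk, a small Maf protein, was lower under it in ISC-like (-0.54 ± 0.12) and proliferating cells (-0.53 ± 0.10). Jdp2 encodes a bZIP repressor that dimerizes with Jun, and it was at 0.216 and 0.217 CPM without and 0.962 and 1.45 CPM with EIPA, or 2.55 ± 0.25 (SE) on the log2 scale. In ISC-like cells Jdp2 rested on 1 and 2 UMIs without and 29 and 37 with EIPA. With -Dox it had 0 UMIs and with +Dox 21, so no fold is given.

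With Dox, 4 of 36 further early genes were lower by at least 1.5-fold in all cells, beside 2.55% of all genes, and 1, Sgk1, was higher by that fold, beside 7.9%. The counts lower were 7 of 36 in ISC-like cells (2.83% of all genes), 5 of 35 in proliferating cells (2.26% of all genes), 15 of 36 in enterocyte-like cells (12.2% of all genes), 9 of 36 in Goblet/Paneth-like cells (3.75% of all genes), 6 of 37 in EEC-like cells (5.76% of all genes) and 11 of 36 in tuft-like cells (15.7% of all genes). The counts higher were 0 in ISC-like cells (4.04% of all genes), 1 in proliferating cells (4.15% of all genes), 1 in enterocyte-like cells (6.93% of all genes), 0 in Goblet/Paneth-like cells (3.66% of all genes), 1 in EEC-like cells (8.09% of all genes) and 4 in tuft-like cells (19.2% of all genes). In tuft-like cells the genes higher were Egr3, Nfkbiz, Socs3 and Sgk1, from 0, 6, 1 and 1 UMIs with -Dox and 2, 13, 4 and 3 with +Dox, and these 4 were named after their values were seen. Dusp1 was at 15.9 CPM with -Dox and 9.60 CPM with +Dox, and Klf2 at 4.41 against 1.65 CPM. None of the 16 upstream genes compared in all cells was lower by that fold.

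The genes whose pattern over the 36 library and class points was most like that of Fos were found among 5587 genes of at least 20 CPM on average, by Pearson's r of log2(CPM + 1). The points share libraries and treatments, so r is a description. Among the other 9 genes of the family, r was 0.89 for Fosb, 0.77 for Atf3, 0.73 for Egr1, 0.72 for Jun, 0.71 for Ier2, 0.59 for Fosl2, 0.55 for Junb, 0.37 for Jund and 0.19 for Fosl1. The 10 most alike of all others were Errfi1 (0.70), Klf6 (0.68), Fam107b (0.66), Pdcd4 (0.66), Trib1 (0.65), Hbegf (0.63), Edn1 (0.63), Gmds (0.63), Klf10 (0.62) and Zfp36 (0.61). Fosb, Atf3, Egr1, Jun and Ier2 stood above every one of these. The points include the +EIPA and -EIPA libraries, whose contrast served the choice of the genes, so nothing is read from this order. Within the 12 points of the -EIPA libraries alone, r with Fos was 0.79 for Atf3, 0.71 for Egr1, 0.54 for Fosb and 0.26 for Jun. It was 0.55 for Junb, 0.51 for Fosl2, 0.51 for Ier2, -0.095 for Jund and -0.615 for Fosl1. At least 10 other genes, led by Ebag9 (0.88) and Fam107b (0.88), stood above all of these. The likeness of Fosb and Jun to Fos was therefore lower among the classes of untreated organoids than over all 6 libraries.

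Other signs of handling and of cell mixture are given beside these values, and their part in the result was not tested. The 12 heat shock genes summed to 8119.6 and 8363 CPM without EIPA, 7491 and 7089.8 CPM under EIPA, 7589 CPM with -Dox and 5831 CPM with +Dox. Their sum was lower with EIPA without overlap, as were 33.6% of all genes, and lower with Dox, the direction of Fos. Taken singly, 8 of 11 tested were fitted below 0 with EIPA in all cells, at a median log2 fold change of -0.099. In ISC-like cells 2 of 11 were below 0, at a median of 0.038. Within classes the sums were lower with EIPA without overlap in enterocyte-like (4993 and 5862 against 4359 and 4106 CPM), Goblet/Paneth-like (6803 and 6724 against 6444 and 5519 CPM), proliferating (9281 and 9345 against 9173 and 8999 CPM) and tuft-like cells (7768 and 8433 against 7451 and 7699.7 CPM). Of all genes, 39.1%, 29.9%, 26.3% and 22.0% were lower without overlap in these classes, in that order. In ISC-like cells the sums were 9915 and 9415 CPM without and 9772 and 9188 CPM with EIPA, and in EEC-like cells 7265 and 7594 against 7304 and 6959 CPM, which overlap. Within pairs the ISC-like sum was lower with EIPA in both experiments and the EEC-like sum in experiment 2 only. With Dox the heat shock sums were lower in each of the 6 classes, in enterocyte-like cells at 4981 CPM with -Dox and 3413.5 CPM with +Dox. Mitochondrially encoded genes summed to 57223 and 39302 CPM without EIPA and 52302 and 37583 CPM under EIPA, which overlap, and to 46782 CPM with -Dox and 56778 CPM with +Dox. They were higher with +Dox in each of the 6 classes, and in enterocyte-like cells, where Fos, Fosb and Jun had their lowest shares with Dox, they stood at 59160.0 CPM with -Dox and 76558 CPM with +Dox. With EIPA the mitochondrial sum over all cells was below that of its partner in both experiments, and in enterocyte-like cells in experiment 1 only. The 10 immune markers summed to 0.404 to 1.34 CPM over the 6 libraries, with 3 to 4 of them at 0, and the 10 markers of mesenchyme or endothelium to 0.378 to 0.629 CPM, with 1 to 5 at 0. Over all cells the immune sum was 1.10 and 0.735 CPM without and 1.34 and 1.06 CPM with EIPA, and 0.404 CPM with -Dox and 0.579 CPM with +Dox. Each treated library was thus above its partner. Within classes the immune sum went both ways. It reached 35.1 CPM in tuft-like cells of +EIPA replicate 1, from 56 UMIs with 8 of the 10 markers at 0. The sum for mesenchyme or endothelium reached 7.52 CPM in EEC-like cells of -EIPA replicate 1, from 30 UMIs with 7 of the 10 at 0. In the barcodes that were not kept, those under 1000 genes or with 20% or more mitochondrial UMIs, Fos was at 358 and 338 CPM without EIPA, 125 and 116 CPM with EIPA, 315 CPM with -Dox and 74.2 CPM with +Dox. Fos was thus lower with EIPA and with Dox than in the matching controls in the discarded barcodes as well. No library of undissociated organoids was analysed here, so the part of dissociation in the level of any group was not tested.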

How the data were processed

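Single-cell 3′ gene expression (10x Genomics v3.1) was measured in 6 libraries of mouse small intestinal organoids. The deposited values are raw UMI counts per gene and barcode, which the authors made by aligning reads to mm10 and counting with Cell Ranger 6.1.2, with no normalization. Gene positions are from GENCODE vM21 (GRCm38), and promoters from RefSeq (GRCm38.p6). Barcodes below 1000 genes, or with mitochondrial UMIs of 20% or more, were left out. Pearson residuals (overdispersion 100) of 3000 variable genes were reduced to 45 components, and a graph of 20 neighbours was clustered by the Leiden algorithm (igraph 0.11.9, resolution 0.8) in Python 3.11.15 with numpy 2.4.6 and scipy 1.17.1. The 10 genes and all other listed genes were left out of the clustering, and clusters were named from marker lists. Of the cells, 57.9% of nearest neighbours came from the cell's own library, and no batch correction was applied. Depth was 161670015 to 239368573 UMIs per library in the cells kept.

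Counts were summed per library and class and fitted across all genes with edgeR 4.0.16 in R 4.3.3 (TMM, filterByExpr, quasi-likelihood test, Benjamini-Hochberg adjustment), -EIPA against +EIPA with n = 2 libraries a group. Fold changes are on the log2 scale. DESeq2 1.42.0, a replicate block, library-size scaling, no count filter, other limits on cells, removal of called doublets, clusters formed within each library, a resolution of 1.2 and leaving out each library were tried as alternatives. The study's source data list the libraries of 1 replicate number as 1 experiment, so the numbers pair the samples. As a check, how far a library lay from its group mean was correlated over genes with the same in its partner, which gave 0.690 in all cells, 0.735 in proliferating, 0.663 in ISC-like, 0.195 in tuft-like and 0.459 in EEC-like cells, and 0.530 in both the enterocyte-like and Goblet/Paneth-like classes. The sources do not say whether replicates came from separate mice, and p-values measure the spread between these libraries. Scripts were tested on simulated counts.

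Scrublet's automatic threshold marked almost no cells in most of the libraries it was run on, so its score was recomputed and cells were called at the expected rate of 0.8% per 1000 cells, 9.7 to 14.6% of a library. Levels in Dox libraries carry exact Poisson intervals at 95%, and genes of at least 1 CPM on average were compared. The genes named are the 10, the called genes of largest size in each further list (up to 4 a list, here from edgeR with the block, since the edgeR fits as reported called none without it), and the 10 genes most like Fos. The 10 genes and the further lists were chosen with earlier results of these data known. The promoters of Fosl1, Egr1 and Ier2 were not used here, and the level of the edited gene and of 1 listed gene is not reported here.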

Additional observations from a re-analysis of the deposited data

Results flagged for a closer look

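Fosl1 differed in sign between classes with EIPA when the libraries of each experiment were compared on the log2 scale. In ISC-like cells it was higher by 0.08 and 0.24 in experiments 1 and 2, and in enterocyte-like cells the difference was -0.53 and -0.76, a gap between the classes of 0.81. In EEC-like cells the difference was -0.82 and -0.44, a gap from ISC-like cells of 0.79. Neither gap was tested. The sign in ISC-like cells turned when clusters were formed within each library (-0.29) and without +EIPA replicate 2 (-0.06), and the fitted value in enterocyte-like cells turned without -EIPA replicate 2 (0.03). In EEC-like cells Fosl1 was too low for the edgeR fit. Fosl1 lay at 0.735 to 1.12 CPM in ISC-like cells and at 0.538 to 1.58 CPM in enterocyte-like cells.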

How the results depend on the processing

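The number of the 10 genes called with EIPA depended on the test. In the order all cells, ISC-like, proliferating, enterocyte-like, Goblet/Paneth-like, EEC-like and tuft-like cells it was 0, 0, 0, 0, 1, 0 and 0 in edgeR as reported, 7, 4, 7, 6, 3, 2 and 1 by DESeq2, and 5, 6, 7, 6, 4, 0 and 4 without the filter on low counts, where 198 of 22851 genes were called in all cells and 885 of 18850 in enterocyte-like cells. Without that filter 193 of 18861 genes were called in ISC-like, 120 of 19541 in proliferating and 370 of 18855 in Goblet/Paneth-like cells. In EEC-like cells 0 of 18673 were called and in tuft-like cells 60 of 15700. With the replicate block, which pairs the libraries of 1 experiment, the number of the 10 genes called was 6, 8, 9, 6, 7, 6 and 4. Scaling by library size gave 3 in Goblet/Paneth-like cells (of 72 genes called). Removal of called doublets gave 3 in enterocyte-like (of 84) and 0 (of 16) in Goblet/Paneth-like cells. Strict limits on cells gave 1 in ISC-like (of 1) and 2 (of 8) in tuft-like cells. Clusters within each library gave 1 in ISC-like (of 1) and 0 in Goblet/Paneth-like cells (of 0), and a resolution of 1.2 gave 1 in ISC-like cells (of 1). The counts also changed when 1 library was left out. Those fits assume that the lone library of a group varies like the other group, so their counts are not given. Why the counts differed between settings was not tested.

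Of the other listed genes, 0 were called in all cells as reported, 16 by DESeq2, 5 without the filter and 14 with the replicate block. Of 805 fitted log2 fold changes of the 10 genes under the alternatives, 152 moved beyond a set limit (32 of Jund, 31 of Fosb, 20 of Fos). The limit was the SD of the log2 ratios (+EIPA over -EIPA) of experiments 1 and 2. It is narrow where the experiments gave near equal shares, as for Fosb in ISC-like cells at 14.8% and 15.3%. Of the 805, 14 turned sign, 7 of Fosl1, 4 of Junb, 2 of Jund and 1 of Egr1. None of Fos, Fosb, Fosl2, Jun, Atf3 or Ier2 did. Scaling by library size shifted the median of all genes from -0.00325 to -0.0858 in all cells and to -0.149 in enterocyte-like cells. The count lower by at least 1.5-fold with Dox was 5 of 9 as reported and 4 to 5 under the alternatives, and the 35 pairs highest in EEC-like cells were 35 under both other clusterings. With 2 libraries a group and no pairing, small differences such as those of Junb and Jund are near the limit of what can be told from the spread. With the replicate block edgeR called Jund in ISC-like (4.44% of all genes), proliferating (9.02%), Goblet/Paneth-like (5.96%) and EEC-like cells (1.8%). It called Junb in proliferating and Goblet/Paneth-like cells. Fosl1 rests on few UMIs.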
